A study of Mus musculus with 8 samples.

Results

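The 10 genes described here encode parts of the intercalated disc, the junction that joins heart muscle cells end to end: Gja1, Dsp, Pkp2, Jup, Dsg2, Dsc2, Cdh2, Ctnna1, Ctnna3 and Ctnnb1. They were taken by gene name from the arrays' own annotation, which gave 25 probes of 41174 non-control probes. Of these, 19 probes, at least 1 for each gene, were bright enough to be tested, among 22715 tested probes in all. The hearts came from male mice aged 12 weeks, 4 overexpressing PKR2 (taken to be prokineticin receptor 2, which signals through G proteins) and 4 wild-type (WT), and each heart was hybridized to 1 array that measures RNA by the brightness of Cy3-labelled copies. The labels do not name the strain, the transgene's promoter or the cell type that drives it, nor whether the mice were littermates, so the p-values measure only the spread between these 8 samples.

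An intercalated disc combines 3 kinds of junction. Gap junctions are channels built of connexins that pass the electrical impulse from cell to cell, desmosomes tie the cells' intermediate filaments together, and adherens junctions tie their actin filaments together. In both adhesive junctions a cadherin spans the membrane. Inside the cell it is linked, directly or through partners, to beta- and alpha-catenin in adherens junctions, and to plakoglobin, plakophilin and desmoplakin in desmosomes. Inherited defects of the desmosomal genes are a known cause of arrhythmogenic cardiomyopathy in people.

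The Prokr2 probe, the only one for the receptor gene, stayed at background on all 8 arrays, with a mean level of -6.46 in PKR2 hearts and -6.12 in WT hearts, so it does not check the labels. A transgene that lacks the probed stretch would not be seen by it. Signal differed widely between arrays before scaling: the 75th percentile ran from 40.9 (WT 2) to 770 (PKR2 1), and between 48.3% and 67.1% of spots were well above background. Levels below are log2 signal minus the 75th percentile of the same array, so 0 is that percentile. Values are listed in the order PKR2 1 to 4 and then WT 1 to 4, and a difference is PKR2 minus WT. Slides 5 and 6 each held 1 array of either group (PKR2 3 with WT 3, PKR2 4 with WT 4), which gives a difference within each slide.

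None of the 19 tested probes differed between PKR2 and WT hearts in limma at an adjusted p of 0.05, and none had an unadjusted p under 0.05. The adjusted p was 0.9997 for each of them. Over all 22715 tested probes limma called 0 (0%) at the adjusted threshold and 586 (2.58%) at the unadjusted one, 1.39% higher and 1.19% lower in PKR2 hearts. The PKR2 and WT values overlapped for every tested probe of the 10 genes, where 415 of all tested probes (1.83%) had groups that did not overlap, 1.06% higher and 0.77% lower. Taking the brightest tested probe of each gene, 6 genes had a higher mean and 4 a lower mean in PKR2 hearts, against 54.1% higher and 45.9% lower over all tested probes. The share of all tested probes that were higher was 41.0% under median scaling and 41.8% after normexp background correction. It was 39.9% after normexp on arrays first brought to a common level. Of the 10 genes, 4, 9 and 8 were higher in these runs, in that order, so a count of signs depends on the scaling. The median difference of the 10 genes was 0.045, against 0.019 over all tested probes. When arrays were scaled to their median it was -0.016, against -0.043 over all tested probes, so both medians moved down.

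**Figure D1:**
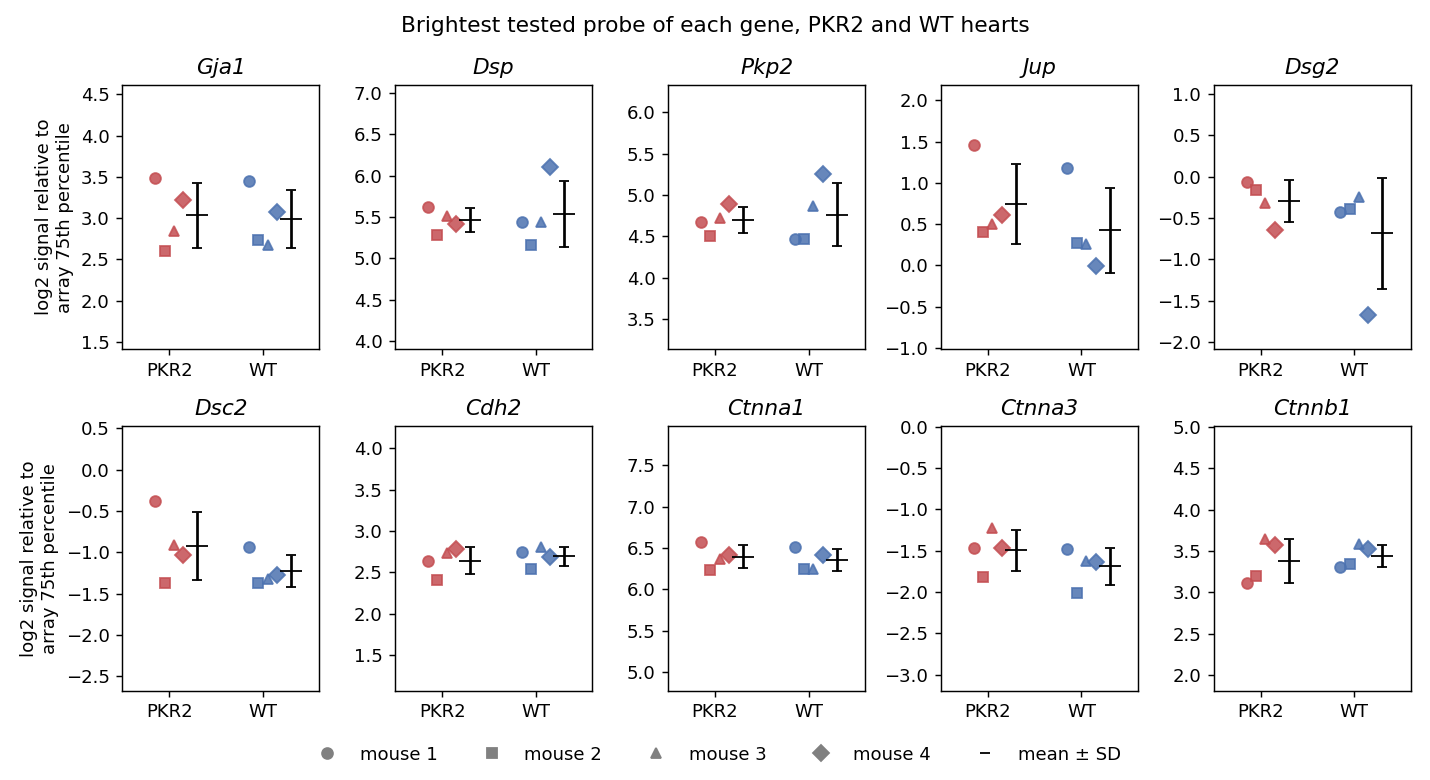
Level of the brightest tested probe of each of the 10 genes on every array, as log2 signal relative to the array's 75th percentile (vertical axis, the same span of units in each panel). Red marks are PKR2 hearts and blue marks WT hearts, the marker shape gives the mouse number within its group, which pairs nothing, and the bars show mean ± SD (n = 4). The groups overlap in every panel, and WT 4 stands apart from the other WT hearts for Dsg2 at -1.68.

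Gja1 encodes Cx43, the connexin of the main gap junction channel of the working ventricle. Its probe (chromosome 10, 56078423 to 56078482, build mm8, plus strand) read 3.48, 2.60, 2.84 and 3.22 in PKR2 hearts, against 3.45, 2.74, 2.68 and 3.08 in WT hearts. PKR2 1 and WT 1 were the highest of their groups and nearly equal, and the lowest value of all was that of PKR2 2. The difference was 0.049 (SE 0.24, 95% interval -0.50 to 0.60), which as a ratio of PKR2 to WT signal lies between 0.71 and 1.51. Within slides 5 and 6 it was 0.16 and 0.15.

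The Gja1 probe was printed 10 times on each array, which shows the error between spots of 1 array. The SD over the 10 spots had a median of 0.068 across arrays and ran from 0.055 to 0.17, whereas the SD over mice was 0.39 in PKR2 hearts and 0.35 in WT hearts. A Ctnnb1 probe, also printed 10 times, had a median spot SD of 0.067 (0.031 to 0.10), beside 0.40 over PKR2 hearts and 0.26 over WT hearts. For these probes the spread between spots was thus several times smaller than the spread between arrays, which holds the mice and every step from extraction to scan.

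**Figure D2:**
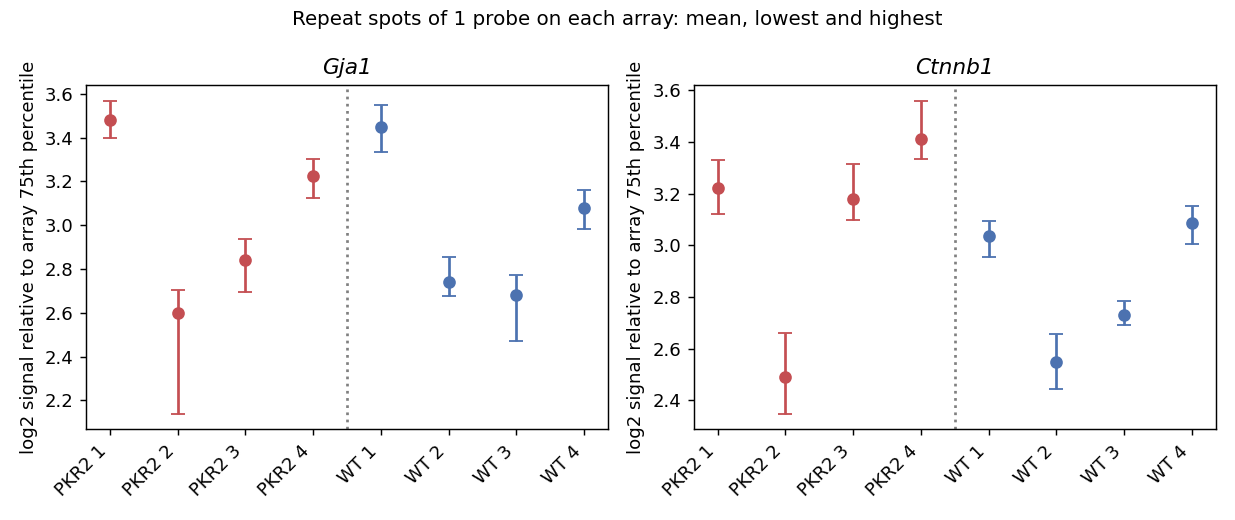
Level of the Gja1 probe and of a Ctnnb1 probe that were each printed 10 times on every array, as log2 signal relative to the array's 75th percentile. Points are the mean of the spots and bars run from the lowest to the highest spot, with PKR2 arrays in red left of WT arrays in blue. Spots of 1 array lie close together, with a median SD of 0.068 for Gja1, and the arrays lie further apart than their spots.

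Desmoplakin, the product of Dsp, links the desmosomal plaque to the intermediate filaments, and its gene was covered by 4 probes. The brightest (chromosome 13, 38205718 to 38205777, plus strand) read 5.63, 5.29, 5.51 and 5.42 in PKR2 hearts, against 5.44, 5.16, 5.44 and 6.10 in WT hearts. WT 4 was the highest of all, and the other 7 values lay close together. The difference was -0.075 (SE 0.21, 95% interval -0.54 to 0.40), and it became 0.11 without WT 4. The slides disagreed, with 0.075 in slide 5 and -0.68 in slide 6, which holds WT 4.

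The other Dsp probes lie 387, 2463 and 3601 bases upstream of the brightest one on the genome. Their differences were 0.20 (SE 0.30), 0.36 (SE 0.32) and -0.15 (SE 0.35), so 4 probes of 1 gene gave both signs. The probe 387 bases upstream read 5.32, 4.20, 4.69 and 4.61 in PKR2 hearts, against 5.09, 4.03, 4.16 and 4.74 in WT hearts. The one 2463 bases upstream read 0.16, -0.66, -0.57 and -0.69 in PKR2 hearts, against -0.18, -0.88, -0.52 and -1.62 in WT hearts. PKR2 1 and WT 1 led their groups at both, and WT 4 was second among WT hearts at the nearer probe and lowest of all at the further one. The furthest upstream read -1.18, -2.31, -1.95 and -1.88 in PKR2 hearts, against -0.83, -2.30, -1.45 and -2.14 in WT hearts, with WT 1 the highest of all. Array WT 4 shows the disagreement most clearly. Relative to each probe's mean over the 8 arrays it read 0.60, 0.13, -0.997 and -0.39 at the 4 probes, in order from the 3′ end. PKR2 1 read 0.13, 0.72, 0.78 and 0.57, and WT 1 read -0.059, 0.48, 0.44 and 0.93. PKR2 1 and WT 1 were thus near their mean at the 3′-most probe and higher at all 3 upstream probes, while WT 4 was high at the 3′-most probe and low at the 2 furthest from it.

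Whether such an end contrast was wider than Dsp was read from 3385 genes with tested probes at least 500 and at most 20000 bases apart, a description chosen after the values were seen. For each gene the deviation at the 5′-most probe was subtracted from that at the 3′-most probe. The median over genes was -0.22, 0.046, -0.0099 and -0.054 on PKR2 1 to 4, against -0.14, 0.072, 0.12 and 0.18 on WT 1 to 4. PKR2 1 and WT 1 had the most negative medians and WT 4 the most positive one, with 30.8%, 35.2% and 67.4% of genes above 0 on those arrays. The part of this array-wide shift in the differences of the 10 genes was not tested.

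**Figure D3:**
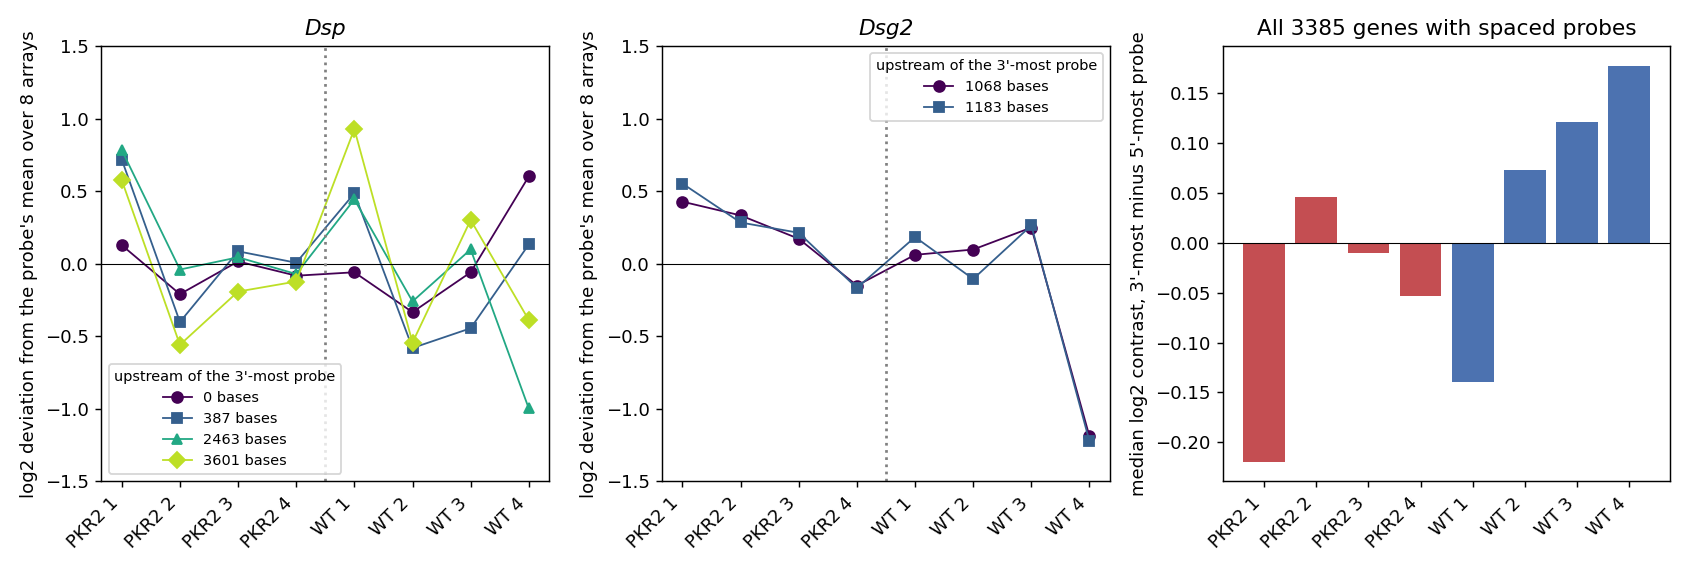
Deviation of each tested Dsp probe (left) and Dsg2 probe (middle) from its own mean over the 8 arrays, in log2 units, with PKR2 arrays left of the dotted line and WT arrays right of it. Colours give the distance upstream of the gene's 3′-most probe, which for Dsg2 could not be tested. The right panel gives the median over 3385 genes of the 3′-most minus the 5′-most deviation, from -0.22 on PKR2 1 to 0.18 on WT 4.

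Pkp2 encodes plakophilin 2, the plaque protein that anchors desmoplakin to the desmosomal cadherins in heart. The Pkp2 probe (chromosome 16, 16186133 to 16186192, plus strand) gave 4.68, 4.51, 4.72 and 4.89 in PKR2 hearts, against 4.47, 4.46, 4.87 and 5.25 in WT hearts. The PKR2 values lay within the range of the WT values, which spread further (SD 0.16 in PKR2 and 0.38 in WT hearts, n = 4 each). The difference was -0.064 (SE 0.21, 95% interval -0.52 to 0.40). As for the 3′ Dsp probe, WT 4 was the highest array, and without it the difference was 0.099.

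Jup encodes plakoglobin, a catenin shared by desmosomes and adherens junctions and a close relative of beta-catenin. Its probe (chromosome 11, 100187471 to 100187530, minus strand) read 1.46, 0.41, 0.50 and 0.61 in PKR2 hearts, against 1.18, 0.27, 0.25 and -0.0090 in WT hearts. PKR2 1 and WT 1 stood well above the other 6 arrays. The difference was 0.32 (SE 0.31, 95% interval -0.37 to 1.01), with 0.25 in slide 5 and 0.62 in slide 6. With PKR2 1 and WT 1 both at position 4 of their slide, as were all PKR2 arrays, the fit that holds position constant sets PKR2 against WT 1 alone and gave -0.43 (SE 0.39).

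PKR2 1 and WT 1 were the highest arrays for Gja1, Jup, both Ctnna1 probes and the 3 upstream Dsp probes, but not for the brightest Dsp probe. On these arrays Gja1 exceeded its own mean by 0.47 and 0.44, Jup by 0.88 and 0.59, and the Dsp probe 387 bases upstream by 0.72 and 0.48. The brighter Ctnna1 probe exceeded its mean by 0.20 and 0.14 and the upstream one by 0.71 and 0.43. The 250 bases before the annotated start of Gja1, Jup and Dsp, chosen after these values were seen, are shown (that of Ctnna1 is not shown here), from RefSeq on GRCm38.p6 (chr10:56377050-56377299, plus strand; chr11:100397791-100398040, minus strand; chr13:38151044-38151293, plus strand), 5′ to 3′, with matches to an Sp1 GC box or an AP-1 site on either strand in capitals.
Gja1 promoter: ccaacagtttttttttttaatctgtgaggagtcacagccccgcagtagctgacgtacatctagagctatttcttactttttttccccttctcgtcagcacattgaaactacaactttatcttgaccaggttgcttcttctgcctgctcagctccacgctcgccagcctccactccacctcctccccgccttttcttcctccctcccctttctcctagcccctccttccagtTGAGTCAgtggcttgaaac
Jup promoter: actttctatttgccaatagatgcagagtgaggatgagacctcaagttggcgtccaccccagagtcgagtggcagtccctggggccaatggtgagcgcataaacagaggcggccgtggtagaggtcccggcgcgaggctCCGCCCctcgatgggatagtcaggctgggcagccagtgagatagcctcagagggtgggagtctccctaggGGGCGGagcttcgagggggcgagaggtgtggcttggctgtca
Dsp promoter: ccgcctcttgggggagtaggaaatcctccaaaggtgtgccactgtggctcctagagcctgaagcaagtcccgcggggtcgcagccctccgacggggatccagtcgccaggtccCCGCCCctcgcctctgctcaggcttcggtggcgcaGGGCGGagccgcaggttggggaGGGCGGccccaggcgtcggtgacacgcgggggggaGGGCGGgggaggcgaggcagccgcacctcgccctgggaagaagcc

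Letters were searched on both strands for GGGCGG (Sp1), TGANTCA (AP-1), CTTTGAT (TCF/LEF, the partners of beta-catenin), CTA and TAG 4 bases apart (MEF2) and CANNTG (E-box). Gja1 held 1 AP-1 match that begins 19 bases before the start and no GC box. Jup held GC boxes beginning 112 and 42 bases before its start, and Dsp held 4, beginning at 137, 102, 80 and 45 bases. An E-box match in Gja1 begins 23 bases before the start, overlaps the AP-1 letters and is left in lower case. No other match lay in these windows. Among 32851 promoter windows of the same length, 32.7% hold a GC box, 6.75% an AP-1 match, 3.21% a TCF/LEF match, 3.2% a MEF2 match and 66.2% an E-box, so the GC boxes and the E-box are common letters. Pkp2 is named only.

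Desmoglein 2 and desmocollin 2 are the desmosomal cadherins of heart muscle. Dsg2 was covered by 5 probes, of which 2 were tested. The brighter of these (chromosome 18, 20745686 to 20745745, plus strand) read -0.062, -0.16, -0.32 and -0.64 in PKR2 hearts, against -0.43, -0.39, -0.24 and -1.68 in WT hearts. WT 4 lay far below the other 7 arrays, which lay close together. The difference of 0.39 (SE 0.31, 95% interval -0.30 to 1.08) shrank to 0.059 without WT 4. It was -0.077 in slide 5 and 1.04 in slide 6.

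The second tested Dsg2 probe, just upstream of the first, read -0.85, -1.12, -1.19 and -1.57 in PKR2 hearts, against -1.22, -1.51, -1.14 and -2.63 in WT hearts. WT 4 was again the lowest, and the difference was 0.44 (SE 0.32). The probe 1068 bases 3′ of the brighter tested one on the genome was bright but left out of the test because its only spot was flagged on PKR2 3. It read 1.07, 1.75 and 1.41 on PKR2 1, 2 and 4, against 1.13, 1.46, 1.81 and 1.68 in WT hearts. PKR2 1 and PKR2 4 lay below the WT mean of 1.52 and PKR2 2 above it, and the slide 6 difference was -0.27. The brightest Dsg2 probe thus did not show the higher PKR2 values of the 2 tested ones. WT 4 was the second highest of the WT hearts at that probe, while at both probes upstream it was by far the lowest. Of the remaining Dsg2 probes, 1 was well above background on 2 PKR2 and 2 WT arrays and 1 on none.

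Dsc2 held the smallest unadjusted p among the brightest probes of the 10 genes, 0.208. That probe (chromosome 18, 20175544 to 20176129, minus strand) read -0.38, -1.38, -0.91 and -1.04 in PKR2 hearts, against -0.93, -1.37, -1.32 and -1.27 in WT hearts. PKR2 1 was the highest, and PKR2 2 lay with the lower WT hearts. The difference was 0.30 (SE 0.22, 95% interval -0.20 to 0.80), with 0.41 in slide 5 and 0.23 in slide 6. As a ratio of PKR2 to WT signal the interval runs from 0.87 to 1.74.

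The other Dsc2 probes lie nearer the 3′ end and overlapped between groups. The middle one read -1.46, -2.29, -1.74 and -1.92 in PKR2 hearts, against -1.81, -2.42, -1.82 and -1.75 in WT hearts, a difference of 0.096 (SE 0.22). The 3′-most one read -1.39, -1.98, -1.61 and -1.82 in PKR2 hearts, against -1.65, -1.84, -1.49 and -1.51 in WT hearts, a difference of -0.075 (SE 0.17). PKR2 1 was the highest and PKR2 2 among the lowest at all 3 probes, and the mean of the 3 gave 0.11 (SE 0.19).

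The genes whose brightest probe was most like that of Dsc2 over the 8 arrays, among 14003 genes, were Rilpl1 (Pearson r = 0.98), Galc (0.97), Srpr (0.97), Gnao1 (0.97) and Cpt1c (0.97). These arrays also share scaling and signal strength, and with 8 points among 14003 genes such values carry no test. The 5 genes encode, in that order, a protein of the Rab-interacting lysosomal family, the lysosomal enzyme galactosylceramidase, a subunit of the signal recognition particle receptor, a G protein alpha subunit and a brain-type carnitine palmitoyltransferase.

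Cdh2 encodes N-cadherin, the classical cadherin of cardiac adherens junctions. Its brightest probe (chromosome 18, 16732027 to 16732056 as annotated, minus strand) read 2.63, 2.41, 2.73 and 2.79 in PKR2 hearts, against 2.74, 2.54, 2.81 and 2.68 in WT hearts. All 8 values fell in a narrow band, with PKR2 2 and WT 2 the lowest of their groups. The difference was -0.054 (SE 0.15, 95% interval -0.39 to 0.28), a ratio of PKR2 to WT signal between 0.76 and 1.22. The 2 other Cdh2 probes, 50291 and 182661 bases further upstream, were not well above background on any array.

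Alpha-catenins connect the cadherin complex to actin, and the mouse heart uses both alpha-E-catenin (Ctnna1) and alpha-T-catenin (Ctnna3). Ctnna1 (chromosome 18, 35380449 to 35380508, plus strand) read 6.57, 6.23, 6.37 and 6.41 in PKR2 hearts, against 6.51, 6.24, 6.24 and 6.41 in WT hearts. The groups were nearly superimposed. This gave the narrowest interval of the 10 genes, -0.29 to 0.38 around a difference of 0.042 (SE 0.15). A second probe, 71909 bases upstream, read -0.31, -1.48, -1.25 and -0.89 in PKR2 hearts, against -0.59, -1.41, -1.46 and -0.77 in WT hearts. Its arrays spread further, with PKR2 1 and WT 1 again the highest of their groups, and its difference was 0.075 (SE 0.29).

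For Ctnna3 the tested probe (chromosome 10, plus strand, annotated from 64341325 to 64355129) read -1.46, -1.82, -1.23 and -1.47 in PKR2 hearts, against -1.48, -2.01, -1.63 and -1.63 in WT hearts. PKR2 3 was the highest and WT 2 the lowest, and PKR2 2 lay below 3 of the 4 WT hearts. The difference was 0.19 (SE 0.18, 95% interval -0.22 to 0.61). The gene's other probe was not well above background on any array.

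Ctnnb1 encodes beta-catenin, which binds N-cadherin at the junction and also carries Wnt signals to the nucleus. The brightest of its 3 probes (chromosome 9, 120808854 to 120808913, plus strand) read 3.11, 3.19, 3.64 and 3.57 in PKR2 hearts, against 3.30, 3.34, 3.59 and 3.52 in WT hearts. PKR2 1, PKR2 2, WT 1 and WT 2 lay below the other 4 arrays, so the groups overlapped throughout. The difference was -0.058 (SE 0.17, 95% interval -0.45 to 0.33). The probe with 10 spots, 496 bases upstream, read 3.22, 2.49, 3.18 and 3.41 in PKR2 hearts, against 3.04, 2.55, 2.73 and 3.09 in WT hearts, a difference of 0.23 (SE 0.23). The probes parted on PKR2 1, which was 0.30 below its mean at the first and 0.26 above it at the second. The remaining probe, 3999 bases upstream, read -0.67, -1.18, -0.97 and -0.60 in PKR2 hearts, against -0.77, -1.02, -1.05 and -0.49 in WT hearts, a difference of -0.021 (SE 0.20). Its highest arrays were WT 4 and PKR2 4.

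**Figure D4:**
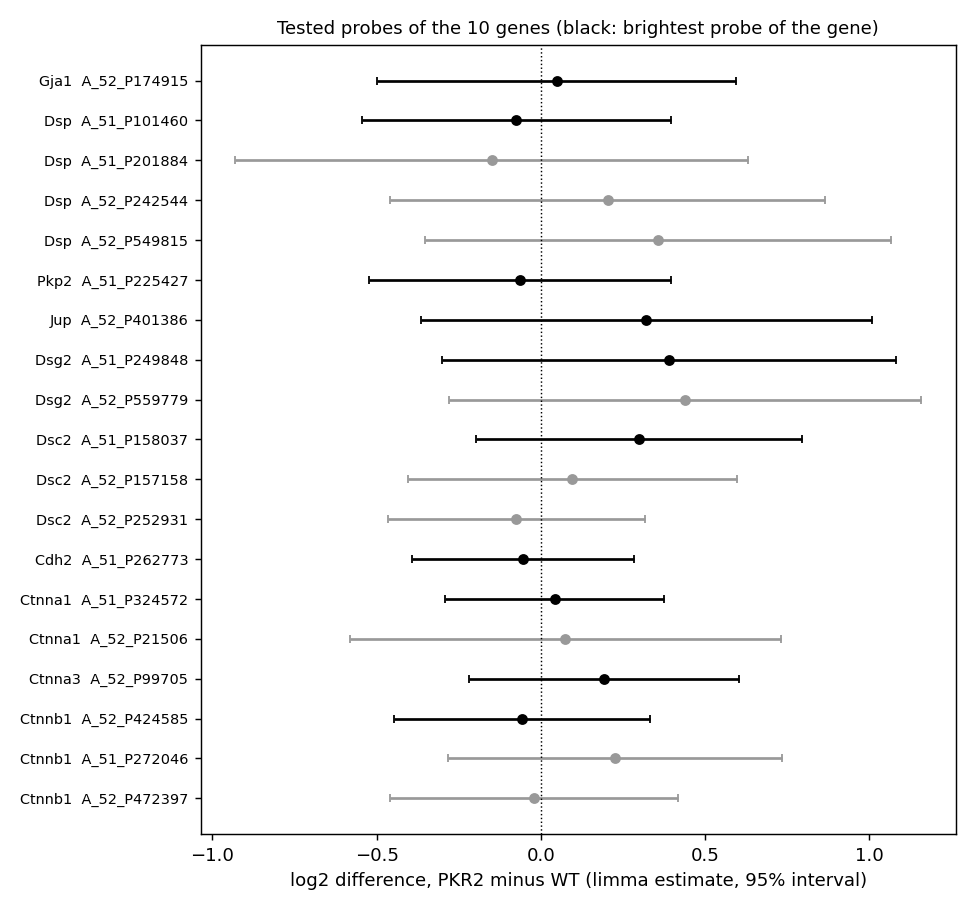
Difference of PKR2 minus WT hearts for the 19 tested probes, in log2 units, with points as limma estimates and bars as 95% intervals (n = 4 arrays each). Black marks the brightest tested probe of each gene and grey its other tested probes. All intervals include 0, and the estimates run from -0.15 for a Dsp probe to 0.44 for a Dsg2 probe.

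The highest and lowest values of the 10 genes fell on a few hearts of either group. By brightest probe, PKR2 1 had the highest value of 5 of the 10 genes, PKR2 2 the lowest of 4 and WT 2 the lowest of 3. PKR2 2 and WT 2 were each above the gene's mean for 1 of 10 genes. WT 4 had the highest value of 2 genes (Dsp and Pkp2) and the lowest of 2 others (Jup and Dsg2).

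The other genes of these junctions were read from lists, and no gene of the 7 lists was called (limma, background 0%). Counts of higher and lower genes in them stand beside 54.1% higher and 45.9% lower over all tested probes, shares that depend on the scaling. Of 10 other desmosome and plaque genes 5 were tested, with a median difference of -0.0030. The largest difference was that of Evpl (envoplakin, a plakin of cornifying epithelia), at -0.29 (SE 0.19), followed by Pkp4 at -0.12 (SE 0.19) and Ppl (periplakin) at 0.0049 (SE 0.17). The desmosomal cadherins of skin, Dsg1a, Dsg3, Dsc1 and Dsc3, were not well above background on any array, and Pkp1 on only 1. Of the squamous epithelium markers, Epcam and Krt15 were likewise above background on no array and Trp63 on 1, while Krt5 (-3.31 in PKR2 and -3.24 in WT hearts) and Krt14 (-2.09 and -1.77) were tested and not called.

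Among 12 other adherens junction genes 9 were tested, 6 higher and 3 lower, with a median of 0.016. Afdn, which encodes the actin-binding nectin partner afadin, read 2.99, 3.01, 2.62 and 2.98 in PKR2 hearts, against 3.22, 3.18, 3.22 and 3.20 in WT hearts. Every PKR2 value lay below every WT value, but the difference of -0.30 (SE 0.15, limma unadjusted p = 0.0700) was not called. Vezt (vezatin) was 0.13 higher (SE 0.13) without overlap, and Vcl (vinculin) 0.16 (SE 0.14) with overlap, again not called. Groups that did not overlap made up 1.83% of all tested probes. Cdh1, the cadherin of epithelia, was not above background on any array.

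Of 13 other connexin and pannexin genes 7 were tested, 5 higher and 2 lower, with a median of 0.074. The smallest p-values belonged to Gjb1 (Cx32) at 0.35 (SE 0.39), Gja3 (Cx46) at 0.074 (SE 0.15) and Gja4 (Cx37, an endothelial connexin) at 0.078 (SE 0.17). Gjb1 was dim, at -3.40 in PKR2 and -3.75 in WT hearts. The kinases and turnover factors of Cx43 were all tested, 8 of 11 higher with a median of 0.065. Prkcd (protein kinase C delta) gave 0.18 (SE 0.15) and Nedd4, a ubiquitin ligase, 0.13 (SE 0.14).

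All 23 scaffold, filament and channel genes of the disc were tested, 16 higher and 7 lower, with a median of 0.025 and a range from -0.20 to 0.26. That median was -0.036 under median scaling, -0.062 with slide as a fixed block and 0.33 under normexp. The median of all tested probes was -0.043, -0.011 and -0.12 in these runs, in that order. Xirp1, an actin-binding disc protein, gave 0.26 (SE 0.18), Bin1, which shapes membrane and delivers calcium channels, -0.19 (SE 0.15), and Sorbs2, an adaptor at the disc and Z-line, 0.20 (SE 0.20). These intervals all included 0.

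Beta-catenin's nuclear arm was read through 12 genes of its destruction complex and nuclear partners (6 higher, 6 lower, median 0.038) and 14 Wnt target genes, of which 11 were tested (6 higher, 5 lower, median 0.034). In the first list Tcf7, a DNA-binding partner of beta-catenin, had an unadjusted p of 0.0316, beside 2.58% of all probes under 0.05. Tcf7 read -3.36, -4.04, -3.98 and -3.79 in PKR2 hearts, against -4.94, -3.97, -4.15 and -4.58 in WT hearts. The groups overlapped through WT 2, and the difference was 0.62 (SE 0.25). These levels are dim: a Dsg2 probe at -3.98 in PKR2 and -3.94 in WT hearts was well above background on only 2 arrays of each group. Gsk3b, the kinase that marks beta-catenin for destruction, gave 0.42 (SE 0.26) and Bcl9, a coactivator, 0.51 (SE 0.33), in both cases with WT 4 as the lowest array (-2.54 and -2.28).

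Among the targets, Apcdd1, a membrane inhibitor of Wnt signals, read 1.03, 1.12, 1.26 and 1.32 in PKR2 hearts, against 1.40, 1.40, 1.42 and 1.54 in WT hearts. The groups did not overlap, and the difference of -0.26 (SE 0.14) was not called (unadjusted p = 0.0964). Nkd2 and Rnf43, which also restrain Wnt signalling, gave 0.42 (SE 0.23) and -0.63 (SE 0.38), neither of them called. Rnf43 was dim, at -4.43 in PKR2 and -3.79 in WT hearts.

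**Figure D5:**
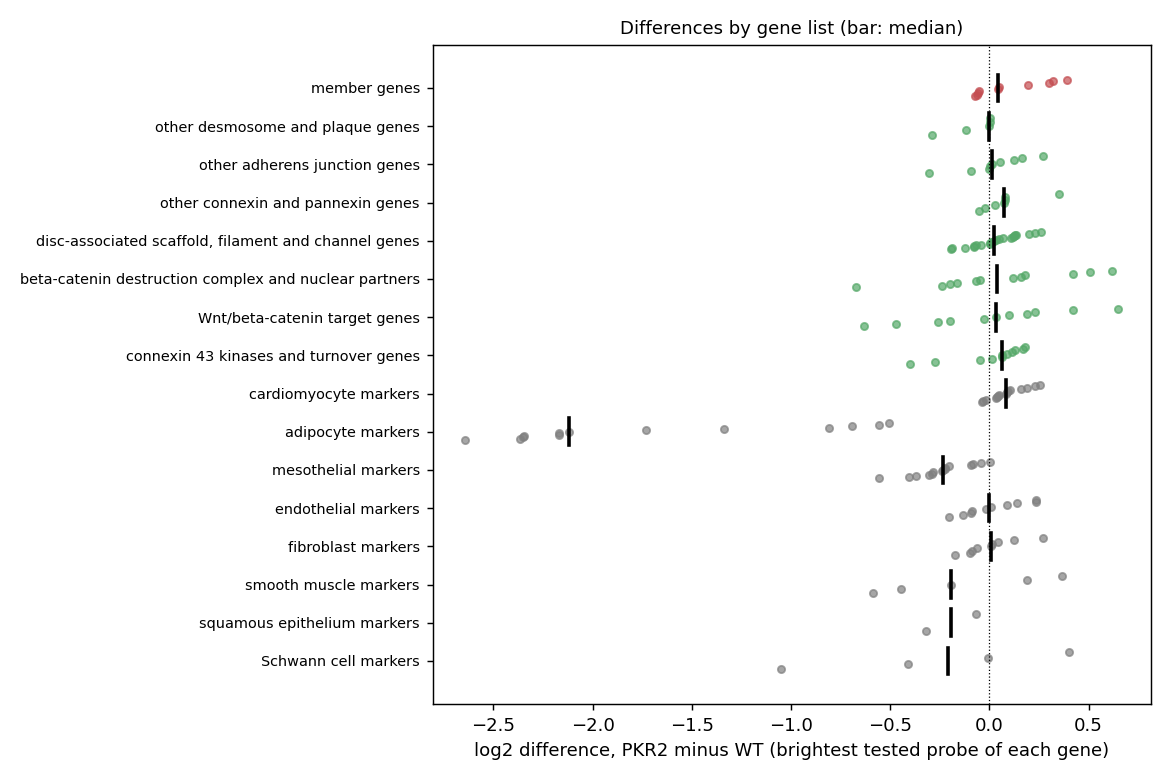
Difference of PKR2 minus WT hearts, in log2 units, for the brightest tested probe of each gene of the 10 disc genes (red), the 7 lists of related genes (green) and 8 cell type marker lists (grey), with a black bar at each list's median. The disc genes lie around a median of 0.045, while all 13 tested adipocyte markers lie left of 0 around -2.12, a median that was -0.080 with slide as a fixed block and -0.60 with array weights.

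Each value is a level in a whole heart, so fewer cells of a type and less RNA per cell cannot be told apart. All 15 cardiomyocyte markers were tested and 12 were higher, with a median of 0.085 (-0.064 with array weights, -0.041 without PKR2 2 and 0.49 under normexp), and their summed signal ran from 4948 to 7329 times the 75th percentile in PKR2 hearts and from 4446 to 6174 times in WT hearts. The defining markers Myh6, Actc1 and Tnnt2 were well above background on every array, with differences of 0.050, 0.26 and 0.085. Adipocyte markers had larger differences. Of 15 adipocyte markers 13 were tested and all 13 were lower, 9 with an unadjusted p under 0.05 and none called, with a median of -2.12. Over all tested probes 54.1% were higher and 45.9% lower in PKR2 hearts, and 1.19% were lower with an unadjusted limma p under 0.05. Adipoq read -0.35, -0.64, 2.96 and 2.97 in PKR2 hearts, against 4.25, 3.94, 2.26 and 3.88 in WT hearts, low on PKR2 1 and PKR2 2 only. Plin1 and Cidec gave -2.17 and -2.35 with the same 2 arrays low. The adipocyte median was -1.30 without PKR2 1, -1.46 without PKR2 2, -1.09 under normexp and -0.60 with array weights. With slide as a fixed block, which compares PKR2 with WT on slides 5 and 6 only and so leaves PKR2 1, PKR2 2, WT 1 and WT 2 out of the difference, it was -0.080. The summed adipocyte signal ran from 228 to 524 in PKR2 hearts and from 447 to 839 in WT hearts. Mesothelial markers were lower for 14 of 15 genes (median -0.23, none called, summed signal 20.7 to 31.2 in PKR2 and 29.2 to 34.2 in WT hearts). That median was 0.025 with the fixed slide block, -0.0051 with array weights and 0.037 once the adipocyte score was held constant.

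The remaining marker lists had no called gene. Medians were -0.0039 for 10 endothelial genes, 0.0077 for 9 fibroblast genes, -0.19 for 5 smooth muscle genes, -0.19 for 2 tested squamous genes and -0.21 for 4 Schwann cell genes. Of the Schwann cell genes 3 were lower and 1 higher, with S100b at -1.05 (SE 0.18). Their summed signal ran from 1.34 to 1.42 in PKR2 hearts and from 1.90 to 2.54 in WT hearts. Of the smooth muscle genes 2 were higher and 3 lower, with Acta2 at 0.36 (SE 0.13). S100b and Acta2 did not overlap between groups, beside 1.83% of all tested probes. With the adipocyte score as a covariate none of the 19 probes was called, and the median difference of the 10 genes was 0.12, beside 0.045 without it. The part of fat or mesothelium in the levels of the disc genes was otherwise not tested.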

How the data were processed

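Heart RNA of 4 PKR2 and 4 WT mice was measured on 1-colour arrays, 1 array per mouse. Per the file headers, Agilent Feature Extraction 9.5.1.1 flagged outlying spots, subtracted background and detrended each array, and probe positions refer to build mm8. The deposited scanner files hold linear spot intensity before any scaling across arrays. Processed intensity values that the authors deposited served as an alternative. They are whole numbers with array medians of 139 to 144, and on the log scale they tracked each array's unprocessed spot medians (r between 0.9996 and 0.9999 across probes with values over 2000), so they were read as linear and uncentred. How they were normalized is not given in the sources used here.

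From the scanner files, control spots and flagged spots were left out, the processed signal was taken to log2, spots of a probe were averaged, and each array's 75th percentile over non-control probes was subtracted. Testing required a probe to exceed background clearly on 3 or more of 4 arrays in PKR2 or in WT hearts, and to have an unflagged spot on every array. No probe of the 10 genes was saturated. Groups were compared with limma 3.58.1 (lmFit and eBayes, no covariate) in R 4.3.3 with the package data.table (version 1.17.8), with Benjamini-Hochberg adjustment over the 22715 tested probes and a threshold of 0.05. The fit was tested on simulated data, with noise drawn separately for each probe and array. It recovered 97 of 100 changes of 2 log2 units but only 46 of 100 changes of 1 log2 unit, with 4 false calls. The number of arrays limits the precision, and half-widths of the 95% intervals had a median of 0.48 over all tested probes.

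All probes of the 10 genes are reported, a gene with several by its brightest tested probe and then the others. In other lists the genes named are those past the threshold or otherwise up to 3 with the smallest p, and in cell type lists up to 3 in list order. A gene named outside this rule (the undetected paralogs) was chosen after its values were seen. A gene that this rule named is not reported here. The members and lists were chosen with earlier results of these data known, and the lists are no independent support. List genes were matched by current or older symbol through a RefSeq gene table of GRCm38.p6, used for names alone. Alternatives were other background corrections, scalings, probe filters and probe-to-gene rules, slide, array position, scan range and adipocyte score as terms, another variance model, array weights, a threshold of 0.1 and leaving out each array. The 8 arrays lay on 6 slides, read from the labels.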

Additional observations from a re-analysis of the deposited data

Results flagged for a closer look

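Of 38 groups of 4 arrays (the PKR2 and WT values of each of the 19 tested probes), 3 held 1 array far from the other 3 by Dixon's 95% criterion on the gap to the nearest array over the range, which chance meets in about 5% of groups. The Dsp probe 2463 bases upstream of the 3′-most one read 0.16 on PKR2 1, with the other PKR2 arrays between -0.69 and -0.57. The brightest tested Dsg2 probe read -1.68 on WT 4, with the other WT arrays between -0.43 and -0.24. The middle Dsc2 probe, 323 bases upstream of the 3′-most one, read -2.42 on WT 2, with the other WT arrays between -1.82 and -1.75.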

How the results depend on the processing

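None of the 19 probes of the 10 genes passed the threshold under any alternative run (smallest limma adjusted p 0.388), so a change of sign below is a change of an estimate that was never called, and its cause was not tested. The count of probes past the threshold, 0 in the scaling to the 75th percentile, was 1 with probes above background on all 8 arrays, 1 with slide as a random block, 1 with a trended robust variance, 1 at a threshold of 0.1, and 5 with array position as a term, where PKR2 is set against WT 1 alone. Leaving out arrays gave 0 to 1, the 1 without PKR2 3. The median difference of the 10 genes was 0.23 under normexp, a correction that moved the median of all probes to -0.12, and ran from -0.014 to 0.15 without each array in turn. All 10 genes were higher under array weights, beside 50.7% of all tested probes, in a run that gave PKR2 3 and PKR2 4 the largest weights. Without each array in turn 5 to 8 genes were higher, beside 51.8% to 55.7% of all tested probes.

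Signs turned as follows. Under normexp: Cdh2 0.18, the upstream tested Dsg2 probe -0.039, the 3′ Dsp probe 0.35, Ctnna3 -0.21, the upstream Ctnna1 probe -0.11, the 3′ Ctnnb1 probe 0.28, Pkp2 0.14 and the middle Dsc2 probe -0.49. With normexp after common scaling, Cdh2 was 0.037, 3′ Dsp 0.16, Ctnna3 -0.032, upstream Ctnna1 -0.017, 3′ Ctnnb1 0.12 and middle Dsc2 -0.26. Quantile normalization gave 0.0063 for 3′ Ctnnb1, and the authors' deposited values -0.031 for middle Dsc2. Median scaling, which moved the median of all tested probes to -0.043, gave -0.012 for Gja1 and -0.019 for Ctnna1. With a fixed slide block (slides 5 and 6 only), Cdh2 was 0.013, 3′ Ctnnb1 0.055 and middle Dsc2 -0.045. With array position, Jup was -0.43, Gja1 -0.41, Ctnna1 -0.12 and -0.39, the Dsp probes 0.022, -0.38 and -0.26 (3′-most, 387 and 2463 bases upstream), Ctnna3 -0.014, 3′ Ctnnb1 0.078, Pkp2 0.23 and middle Dsc2 -0.039. Scan range gave 0.038 for the furthest upstream Ctnnb1 probe. Array weights gave 0.13 for it, Cdh2 0.033, 3′ Dsp 0.021, 3′ Ctnnb1 0.084 and Pkp2 0.025. The adipocyte score gave 0.092 for the furthest upstream Ctnnb1 probe, Cdh2 0.043 and 3′ Ctnnb1 0.15.

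Without each array in turn, ranges that crossed 0 were -0.10 to 0.20 for Gja1, -0.016 to 0.097 and -0.15 to 0.24 for the 3′ and upstream Ctnna1 probes, -0.20 to 0.11, -0.0012 to 0.40 and -0.37 to 0.14 for the Dsp probes at 0, 387 and 3601 bases, -0.16 to 0.099 for Pkp2, -0.10 to 0.023 for Cdh2, -0.14 to 0.031 and -0.11 to 0.092 for the 3′ and furthest upstream Ctnnb1 probes, and -0.059 to 0.24 and -0.18 to 0.018 for the middle and 3′ Dsc2 probes. The labels give the mice no replicate number. The numbers that PKR2 and WT titles share were read as slides 5 and 6, and the paired comparison they allow is the fixed slide block, which rests on those 2 pairs. It called 0 probes, and the median difference of the 10 genes was 0.11, with 8 genes higher, beside 48.6% of all tested probes.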
